A study of Mus musculus with 4 samples.

Results

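The genes described here are 10 cardiac transcription factor genes: Mef2c, Gata4 and Tbx5, which were introduced to reprogram the cells, and Mef2a, Mef2d, Gata6, Tbx20, Hand2, Nkx2-5 and Srf. They were chosen by gene symbol, each symbol had 1 row among the 56691 genes of the table, and all 10 entered the test with 16234 genes. The libraries were RNA-seq of primary wild-type mouse cardiac fibroblasts from hearts at postnatal days 1 to 3, collected at day 7 of reprogramming towards induced cardiomyocyte-like cells (iCM). The MGT+shScd1 group (2 libraries) carried Mef2c, Gata4 and Tbx5 (MGT) and a short hairpin RNA against Scd1. The MGT+shNT group (2 libraries) carried the same 3 factors and a non-targeting hairpin. Scd1 encodes stearoyl-CoA desaturase, which makes monounsaturated fatty acids, and the design text asks what its knockdown changes in reprogramming cells. Both groups carry the factors, so nothing here compares cells with and without them. No source used here gives the vector, its promoter or the share of cells that took it up.

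Direct cardiac reprogramming forces a few transcription factors into a fibroblast, which then turns on parts of the heart muscle programme without passing through a stem cell. MEF2 factors and SRF belong to the MADS box proteins, GATA factors are zinc finger proteins, TBX5 and TBX20 are T-box proteins, HAND2 is a basic helix-loop-helix protein and NKX2-5 is a homeodomain protein. In the embryonic heart they bind many of the same enhancers and regulate each other's genes, and the level of MEF2C relative to the other factors is known to matter for reprogramming.

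Total counts were 19104319 and 18679918 in MGT+shScd1 replicates 1 and 2 and 20894972 and 15135227 in MGT+shNT replicates 1 and 2. The targeted gene, Scd1, had 6.64 and 8.04 CPM (counts scaled to a common library total) in the MGT+shScd1 libraries, against 84.4 and 63.5 CPM in the MGT+shNT libraries. MGT+shNT replicate 2 stood apart by its ribosomal RNA gene Rn18s-rs5, at 3.32% of counts where the other 3 libraries had 0.129% to 0.199%. Calls that were gained or lost without that library, and counts that moved by over 1.5 times, are given below. All 14 fibroblast markers were detected, and together they came to 15179 and 15213 CPM in MGT+shScd1 and 20903 and 19715 CPM in MGT+shNT. The difference between those sums lay in the collagen genes Col1a1, Col1a2 and Col3a1. Their means were 5145, 2103 and 1088 CPM in MGT+shScd1, against 7261, 4291 and 2125 CPM in MGT+shNT. The remaining markers, Postn among them, were together not lower in MGT+shScd1.

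Of the 10 genes, 7 fell with Scd1 knockdown and 0 rose. These were Mef2c, Gata4, Tbx5, Mef2a, Mef2d, Tbx20 and Nkx2-5, while Gata6, Hand2 and Srf did not pass the test. Nkx2-5 passed the filter on low counts only through the MGT+shNT libraries, where it is high. Its fall is therefore no support for the counts of genes given here. A gene passed at a Benjamini-Hochberg adjusted p below 0.05 in edgeR's quasi-likelihood test over all genes, the source of adjusted p-values here unless another test is named. Over all 16234 genes 29.3% were called, 16.3% lower and 13.1% higher, and the median log2 fold change (MGT+shScd1 over MGT+shNT) was -0.41 over the 10 genes (-0.40 with no filter on low counts) against 0.00 over all genes. In CPM 7 of the 10 genes lay lower in both MGT+shScd1 libraries than in both MGT+shNT libraries, as did 32.3% of all genes tested, and 3 overlapped. Leaving out 1 library gave 5 falls without MGT+shScd1 replicate 1 and 6 without MGT+shScd1 replicate 2, where 7.90% and 9.29% of all genes fell, while MGT+shNT replicate 1 left out gave 6 falls (15.6% of all genes) and MGT+shNT replicate 2 left out gave 8 (17.1%). The DESeq2 Wald test gave 5 falls (11.8% of all genes), and limma on log2(FPKM + 1) gave 4 falls of 9 genes (8.49% of all genes, with 1960 genes higher and 1137 lower). None of these settings gave a rise. All 10 together took 0.322% and 0.339% of counts in the MGT+shScd1 libraries, against 0.432% and 0.408% in the MGT+shNT libraries.

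**Figure D1:**
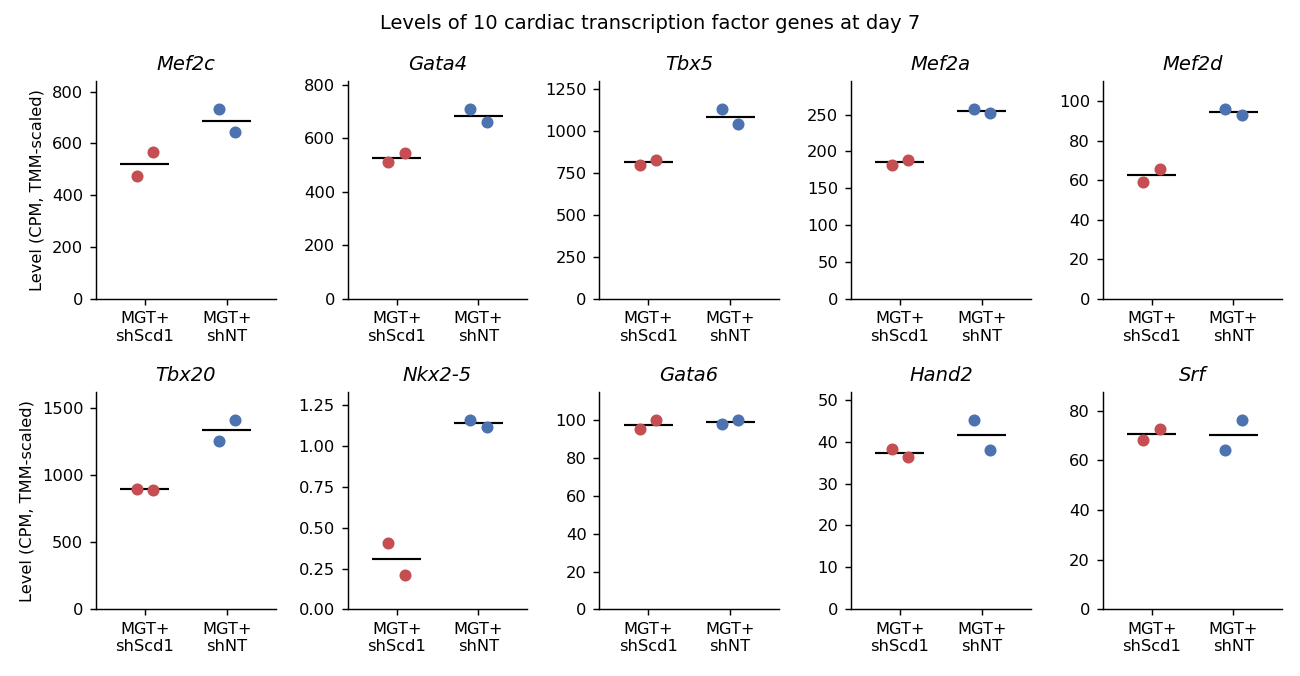
Level of each gene in each library (CPM scaled with TMM factors, each axis from 0), with points for libraries and lines for the mean of 2. In 7 of the 10 genes both MGT+shScd1 points lie under both MGT+shNT points, and in Gata6, Hand2 and Srf the groups overlap.

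The coding sequences of the 3 MEF2 genes share no run as long as a read. MEF2 proteins share a nearly identical DNA-binding MADS box at their start. Its coding sequence (57 codons, 171 bases of the GENCODE M21 transcript with the longest complete coding sequence) is shown for the 3 genes. Capitals mark each base of Mef2a and Mef2d that differs from Mef2c.
Mef2c: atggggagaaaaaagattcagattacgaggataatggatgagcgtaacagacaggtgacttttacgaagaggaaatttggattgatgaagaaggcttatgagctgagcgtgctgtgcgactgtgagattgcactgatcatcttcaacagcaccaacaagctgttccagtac
Mef2a: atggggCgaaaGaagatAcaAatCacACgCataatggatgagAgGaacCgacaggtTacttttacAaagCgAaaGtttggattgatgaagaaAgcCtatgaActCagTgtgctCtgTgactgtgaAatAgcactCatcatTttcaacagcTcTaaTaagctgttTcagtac
Mef2d: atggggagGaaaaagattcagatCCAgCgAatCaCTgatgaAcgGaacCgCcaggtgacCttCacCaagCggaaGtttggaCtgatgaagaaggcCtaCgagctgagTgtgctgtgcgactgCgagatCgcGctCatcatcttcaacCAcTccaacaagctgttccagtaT
Here Mef2a differed from Mef2c at 31 bases (81.9% identity) and Mef2d at 30 bases (82.5% identity). Over the whole coding sequences the longest run shared by Mef2c and Mef2d was 28 bases, by Mef2c and Mef2a 17 bases and by Mef2a and Mef2d 13 bases. Gata4 and Gata6 shared at most 18 bases in a row and Tbx5 and Tbx20 at most 11. Reads were 150 bases long, per the labels' protocols, so none of these runs fills a read.

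Mef2c, Gata4 and Tbx5, the introduced factors, were each lower, to a similar extent, with Scd1 knockdown. Mef2c (chromosome 13, 83504034 to 83667080, plus strand, GRCm38) had 9350 and 10936 counts, or 474 and 568 CPM, in the MGT+shScd1 libraries, against 15073 and 9217 counts, or 731 and 645 CPM, in the MGT+shNT libraries. Both MGT+shScd1 libraries were lower, but replicates of a group lay farther apart than the nearest libraries of the 2 groups. The fold was 0.757 (log2 fold change -0.40, SE 0.08, adjusted p = 0.00296), and without MGT+shScd1 replicate 1 it did not pass (-0.28, adjusted p = 0.105). Gata4, which encodes a pioneer factor that opens closed chromatin (chromosome 14, 63198922 to 63271692, minus strand), had 509 and 544 CPM in MGT+shScd1, against 707 and 661 CPM in MGT+shNT, a fold of 0.769 (log2 fold change -0.38, SE 0.06, adjusted p = 0.000584). Tbx5, a regulator of heart chamber and conduction genes (chromosome 5, 119832668 to 119885219, plus strand), had 796 and 827 CPM in MGT+shScd1, against 1126 and 1041 CPM in MGT+shNT, a fold of 0.749 (log2 fold change -0.42, SE 0.06, adjusted p = 0.000249). For both genes the groups were well separated, and each call held with any single library left out, the log2 fold change ranging from -0.43 to -0.32 for Gata4 and from -0.47 to -0.35 for Tbx5. Together the 3 genes took 0.184% and 0.200% of counts in MGT+shScd1 and 0.253% and 0.222% in MGT+shNT.

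The balance among the 3 factors was nearly the same in both groups. Ratios of counts within a library do not depend on how libraries are scaled to each other. Mef2c had 0.931 and 1.04 counts for each Gata4 count in the MGT+shScd1 libraries, against 1.03 and 0.975 in the MGT+shNT libraries. Mef2c to Tbx5 was 0.595 and 0.686 in MGT+shScd1, against 0.649 and 0.620 in MGT+shNT. For both ratios the groups overlapped, the difference in mean log2 ratio was -0.03 and 0.01, and its sign changed with the library left out (from -0.11 to 0.06 for Mef2c to Gata4 and from -0.09 to 0.11 for Mef2c to Tbx5). Gata4 to Tbx5 varied least between replicates, with 0.639 and 0.657 in MGT+shScd1 and 0.628 and 0.635 in MGT+shNT. Its groups did not overlap, and its difference of 0.04 in mean log2 ratio was the largest of the 3 in size. That difference kept its sign with each library left out (from 0.02 to 0.06). The exact two-sided permutation p was 1 for both Mef2c ratios and 0.333 for Gata4 to Tbx5 (n = 2 each), and 0.333 is the smallest p that 2 against 2 libraries can give, so these tests can make no call in either direction.

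**Figure D2:**
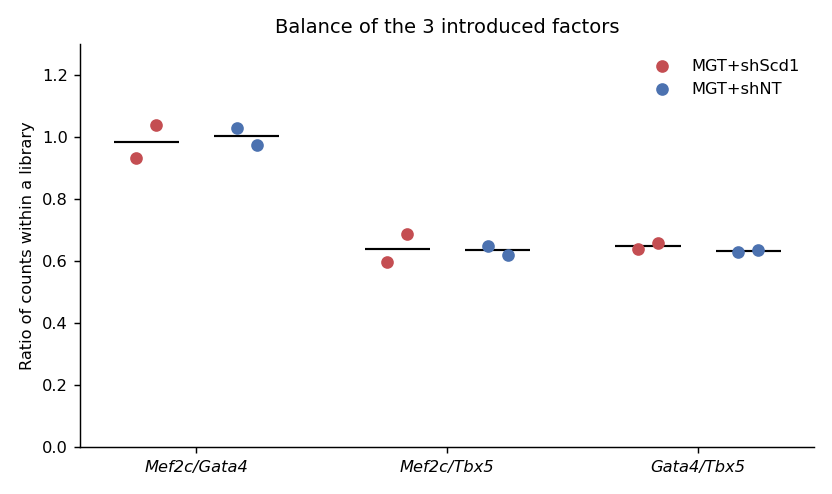
Ratio of counts between pairs of the introduced factors within each library (vertical axis from 0), points for libraries and lines for the geometric mean of 2. Mef2c to Gata4 lies between 0.931 and 1.04 and the ratios to Tbx5 between 0.595 and 0.686, with MGT+shScd1 and MGT+shNT at nearly the same height.

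The counts do not tell introduced from endogenous copies of these 3 genes. What the table does show is how their order depends on the length used to scale them. The deposited FPKM, scaled to total counts without TMM factors, divide by all exonic bases of the gene, which for Mef2c are 15715 bases with a longest coding sequence of 1455 bases (9.26%), for Gata4 3904 with 1329 (34.0%) and for Tbx5 4675 with 1557 (33.3%). On that scale Mef2c had 31.1 and 37.3 FPKM in MGT+shScd1 and 45.9 and 38.8 FPKM in MGT+shNT, far under Gata4 (135 and 144 FPKM in MGT+shScd1, 179 and 160 FPKM in MGT+shNT). Divided by the coding length alone, as if each count fell there, Mef2c came to 336 and 402 CPM per coding kilobase (here with unadjusted library totals) in MGT+shScd1 and 496 and 419 in MGT+shNT. Gata4 came to 396 and 422 in MGT+shScd1 and 525 and 470 in MGT+shNT on that scale, and Tbx5 to 529 and 548 in MGT+shScd1 and 714 and 631 in MGT+shNT. Which length applies depends on how much of each count comes from the introduced copy, and that was not tested.

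**Figure D3:**
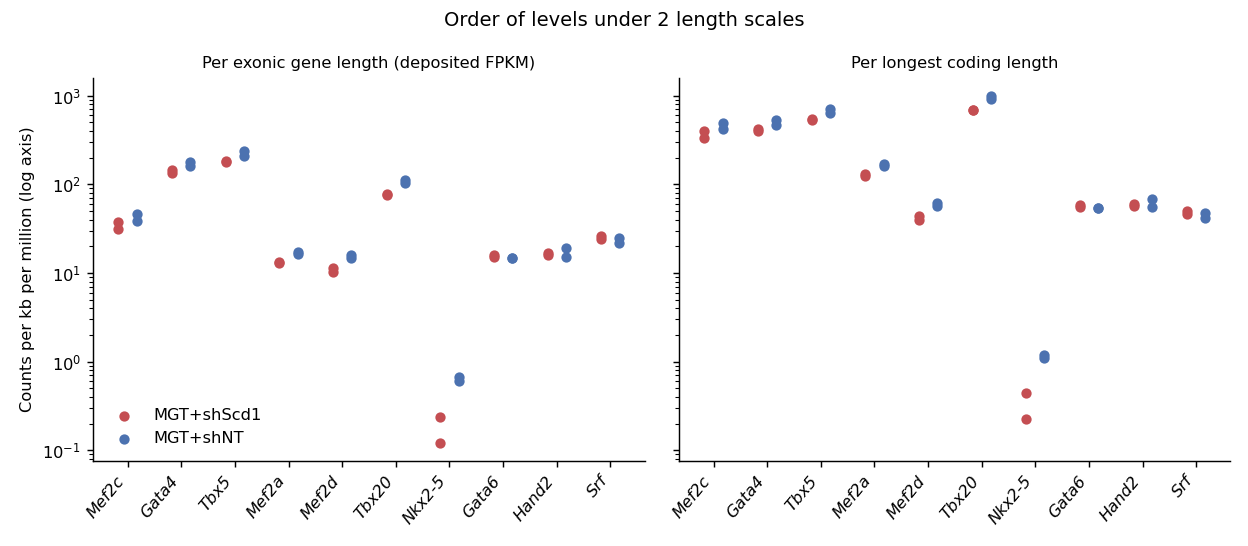
Level of each gene in each library in counts per kilobase, scaled to total counts without TMM factors, on a log axis, divided by the exonic gene length (left) and by the longest coding length (right), with MGT+shScd1 points left of MGT+shNT points. Mef2c lies at 31.1 to 45.9 on the left, apart from Gata4 and Tbx5, and at 336 to 496 on the right, close to Gata4.

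Mef2a and Mef2d, the MEF2 genes that were not introduced, fell as well. Mef2a (chromosome 7, 67231163 to 67372858, minus strand), the main MEF2 gene of the adult heart, had 182 and 189 CPM in the MGT+shScd1 libraries, against 257 and 252 CPM in the MGT+shNT libraries. Replicates lay close together and the groups far apart, with a fold of 0.727 (log2 fold change -0.46, SE 0.06, adjusted p = 5.09e-05). Mef2d (chromosome 3, 88142372 to 88172086, plus strand), whose product mediates stress-dependent remodelling in the mouse heart, had 59.2 and 65.7 CPM in MGT+shScd1, against 95.8 and 93.1 CPM in MGT+shNT, a fold of 0.661 (log2 fold change -0.60, SE 0.07, adjusted p = 2.96e-05). Both calls held with any single library left out, with log2 fold changes from -0.49 to -0.44 for Mef2a and from -0.67 to -0.53 for Mef2d. Mef2c made up 66.3% and 69.1% of the counts of the 3 genes in MGT+shScd1 and 67.4% and 65.1% in MGT+shNT, so the mix of MEF2 counts stayed within the spread of the replicates.

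Tbx20 was the most abundant of the 10 genes in CPM, above the introduced factors. It encodes a T-box factor needed for heart growth and valve formation, lies on the minus strand of chromosome 9 (24718138 to 24774303), and had 899 and 888 CPM in MGT+shScd1, against 1255 and 1408 CPM in MGT+shNT. The groups did not overlap, and the fold was 0.671 (log2 fold change -0.58, SE 0.07, adjusted p = 2.66e-05; -0.65 to -0.49 with 1 library left out). At 17106 to 25885 counts per library it ranked 78th by CPM of the 16234 genes, against 95th for Tbx5. CPM take no account of gene length. Per exonic length Tbx20 (76.3 to 111 FPKM) lay under Tbx5 (176 to 238 FPKM) and Gata4 (135 to 179 FPKM).

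Nkx2-5, an early marker of heart muscle precursors, was barely detected in either group. It lies on the minus strand of chromosome 17 (26838664 to 26845009) and had 8 and 4 counts (0.405 and 0.208 CPM) in the MGT+shScd1 libraries, against 24 and 16 counts (1.16 and 1.12 CPM) in the MGT+shNT libraries. Its log2 fold change of -1.87 (SE 0.53, adjusted p = 0.0160) rests on 12 counts against 40. It passed the filter on low counts through the MGT+shNT libraries, where it is high, so it could hardly be tested without differing. With no filter on low counts it was still called (adjusted p = 0.00818). Without MGT+shNT replicate 1 or either MGT+shScd1 library it did not pass (log2 fold changes of -1.83, -2.42 and -1.48, adjusted p from 0.0561 to 0.270).

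Gata6, Hand2 and Srf did not pass, and for Gata6 and Srf the intervals lay close around 0. Gata6, a relative of Gata4 with overlapping roles in the embryonic heart (chromosome 18, 11052064 to 11085635, plus strand), had 95.2 and 100 CPM in MGT+shScd1 and 97.8 and 100 CPM in MGT+shNT, a log2 fold change of -0.02 with a 95% interval from -0.16 to 0.11 (adjusted p = 0.842). Hand2, a regulator of right ventricle growth that is used as a further factor in some reprogramming mixes (chromosome 8, 57320983 to 57324633, plus strand), had 38.3 and 36.3 CPM in MGT+shScd1 and 45.1 and 37.9 CPM in MGT+shNT. Its log2 fold change was -0.16 (95% interval from -0.36 to 0.04, adjusted p = 0.226), and without MGT+shNT replicate 2 it passed as a fall (-0.28, adjusted p = 0.0166). Srf, the factor of serum-induced and muscle actin genes (chromosome 17, 46548329 to 46556175, minus strand), had 68.1 and 72.8 CPM in MGT+shScd1 and 64.1 and 76.2 CPM in MGT+shNT, a log2 fold change of 0.01 (95% interval from -0.17 to 0.19, adjusted p = 0.939). The sign of Gata6 and Srf changed with the setting, over ranges of -0.06 to 0.07 and -0.10 to 0.13, and on FPKM, which carry no TMM factors, both MGT+shScd1 values of Gata6 (15.1 and 15.9) lay above both MGT+shNT values (14.8 and 14.6).

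**Figure D4:**
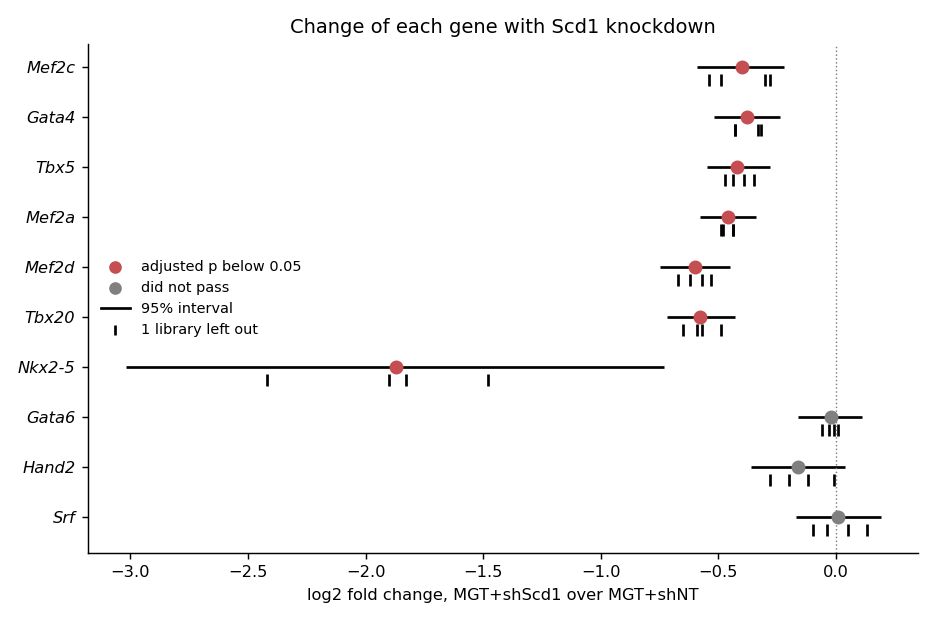
Log2 fold change of each gene (MGT+shScd1 over MGT+shNT) as a point with its 95% interval from edgeR's quasi-likelihood test, and ticks for the value with each library left out. The 7 genes that fell lie between -1.87 (Nkx2-5, barely detected) and -0.38, and Gata6, Hand2 and Srf have intervals that include 0.

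Some of these genes share their locus with others. Hand2os1, the divergent noncoding RNA of Hand2 that overlaps it on the opposite strand, had 275 and 274 counts in MGT+shScd1 and 292 and 214 counts in MGT+shNT (log2 fold change -0.05, adjusted p = 0.811). Gata6os, opposite Gata6, had 184 and 195 counts in MGT+shScd1 and 173 and 125 counts in MGT+shNT (0.18, adjusted p = 0.377). Lysmd4 overlaps Mef2a on the opposite strand with 382 and 355 counts in MGT+shScd1 and 426 and 294 counts in MGT+shNT. The library kit keeps strand, per the labels' protocols, but no source used here says whether the counting used it, so these pairs are uncertain. On the same strand Mef2a overlaps Gm44667, with 59 and 121 counts in MGT+shScd1 and 102 and 85 counts in MGT+shNT. Mef2a had at least 3587 counts in each library and Gata6 at least 1433, while Hand2, with 757 and 699 counts in MGT+shScd1 and 931 and 541 counts in MGT+shNT, stood closer to its partner.

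Per exonic length the genes ran, by their mean over the 4 libraries, from Tbx5 through Gata4, Tbx20, Mef2c, Srf, Hand2, Gata6, Mef2a and Mef2d to Nkx2-5. That order held within MGT+shScd1, while within MGT+shNT Gata6 (14.8 and 14.6 FPKM) lay lower than Mef2a (17.3 and 16.2 FPKM). There it also overlapped with Mef2d (15.8 and 14.7 FPKM) and had the lower mean of the pair (14.7 against 15.2 FPKM). Tbx5 had 176 and 182 FPKM in MGT+shScd1 and 238 and 210 FPKM in MGT+shNT, which placed it among the highest 0.788% of genes tested. Tbx20 had 77.4 and 76.3 FPKM in MGT+shScd1 and 103 and 111 FPKM in MGT+shNT. Srf (21.9 to 25.9 FPKM over the 4 libraries), Hand2 (15.2 to 19.0), Gata6 (14.6 to 15.9), Mef2a (12.8 to 17.3) and Mef2d (10.2 to 15.8) formed a lower tier, in which Hand2, Gata6, Mef2a and Mef2d overlapped with their neighbours over the 4 libraries. Nkx2-5 stood last, with 0.24 and 0.12 FPKM in MGT+shScd1 and 0.67 and 0.61 FPKM in MGT+shNT.

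Bases before the transcription start were examined for 7 of the 10 genes, those with a window in the RefSeq table (GRCm38.p6). The 120 bases before the start are shown, 5′ to 3′ on the gene's strand, for the 4 genes that fell without being introduced and for Srf, which did not pass, with capitals at matches to the motifs searched.
Tbx20 (chr9:24774304-24774423, minus strand): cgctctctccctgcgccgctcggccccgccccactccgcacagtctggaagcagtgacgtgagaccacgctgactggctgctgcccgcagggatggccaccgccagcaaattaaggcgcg
Mef2a (chr7:67372859-67372978, minus strand): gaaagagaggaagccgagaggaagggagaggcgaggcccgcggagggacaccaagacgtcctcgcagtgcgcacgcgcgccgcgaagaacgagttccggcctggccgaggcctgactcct
Mef2d (chr3:88142252-88142371, plus strand): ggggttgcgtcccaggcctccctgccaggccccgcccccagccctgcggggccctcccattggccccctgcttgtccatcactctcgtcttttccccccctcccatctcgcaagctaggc
Nkx2-5 (chr17:26841566-26841685, minus strand): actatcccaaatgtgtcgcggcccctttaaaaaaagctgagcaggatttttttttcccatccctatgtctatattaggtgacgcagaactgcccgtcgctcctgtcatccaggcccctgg
Srf (chr17:46556163-46556282, minus strand): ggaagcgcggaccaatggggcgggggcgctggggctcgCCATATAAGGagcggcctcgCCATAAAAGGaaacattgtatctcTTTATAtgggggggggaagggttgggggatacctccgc
The motifs, searched on both strands in the 250 bases before each start, were the CArG box (bound by SRF), the MEF2 site, GATAA (the core of GATA sites), AGGTGT (the core of T-box sites), TNAAGTG (the core of NK2 homeodomain sites) and TATAAA. Srf held 2 CArG boxes, at -82 to -73 and -62 to -53 from the start, and a TATAAA on the opposite strand at -38 to -33, and its own protein is known to act on its promoter through such boxes. A CArG box was found in 1.47% of all 32851 windows, a MEF2 site in 2.92%, GATAA in 22.6%, AGGTGT in 11.8%, TNAAGTG in 10.1% and TATAAA in 12.4%. The windows of Tbx20, Mef2a, Mef2d and Nkx2-5 held no match. Among 3 windows of Mef2c, which fell too, there were matches to the GATA core, the T-box core and the TATA motif, and Hand2, which did not pass, held the GATA core. They differed in base content, with 68.8% G and C in Tbx20, 73.2% in Mef2d, 61.6% in Mef2a and 49.2% in Nkx2-5 over 250 bases, against a median of 52.4% over all windows.

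Among relatives of these genes in the same families, the share called was near the 29.3% over all genes. Among 14 such genes, 8 passed the filter on low counts, 1 rose, 1 fell and 6 did not pass (median log2 fold change 0.17, and 0.19 over the 13 with a count when no filter was used). Tbx18, a T-box gene of the epicardium and the sinus node, was the most abundant, with 292 ± 4.39 CPM in MGT+shScd1 and 257 ± 12.4 CPM in MGT+shNT (SD, n = 2 each), and rose by 0.19 (adjusted p = 0.0295). Tbx2, a repressor of chamber genes, had 16.7 ± 0.728 CPM in MGT+shScd1 and 14.9 ± 1.97 CPM in MGT+shNT and did not pass (0.16, adjusted p = 0.392). Mef2b, the remaining MEF2 gene, fell by 2.33 on the log2 scale (adjusted p = 0.0137) with 2 and 4 counts in MGT+shScd1 against 17 and 11 counts in MGT+shNT. Like Nkx2-5 it passed the filter on low counts only through the MGT+shNT libraries (adjusted p = 0.0175 with no filter), so its fall is no support for a count over the family. The calls on Tbx18 and Mef2b were lost without MGT+shNT replicate 1, MGT+shScd1 replicate 1 or MGT+shScd1 replicate 2 (adjusted p from 0.0841 to 0.234 for Tbx18 and from 0.0711 to 0.294 for Mef2b), and without MGT+shNT replicate 2 there were 2 rises and 1 fall. Nkx2-6 had no count in any library.

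Other cardiac regulators and the cofactors of these factors are set against 13.1% higher and 16.3% lower over all genes, and the cofactors were called about as often as all genes. For log2(FPKM + 1) the shares over all genes were 14.6% higher and 8.49% lower. Among 15 tested of 20 other regulators there was 1 rise and 1 fall, and 13 missed the threshold (median -0.01). Shox2, a factor of the sinus node, rose by 1.71, and Tead1, the muscle partner of YAP, fell by 0.37 on the log2 scale to 448 ± 31.7 CPM in MGT+shScd1, against 579 ± 4.08 CPM in MGT+shNT. There were 2 rises and 2 falls without MGT+shNT replicate 1, and 3 rises and 2 falls without MGT+shNT replicate 2. Mesp1 had no count in any library. The 22 cofactors and repressors gave 3 rises and 4 falls, and 15 missed the threshold (median -0.07), with 4 rises and 6 falls without MGT+shNT replicate 2 and 2 rises and 2 falls of 21 on log2(FPKM + 1). Among class II histone deacetylases, which hold MEF2 proteins inactive, Hdac7 fell (-0.41, 121 ± 1.21 CPM in MGT+shScd1 and 161 ± 5.12 CPM in MGT+shNT) and Hdac9 rose (0.64, 11.2 ± 0.555 CPM in MGT+shScd1 and 7.23 ± 1.25 CPM in MGT+shNT). Hdac4 (-0.16, adjusted p = 0.153) and Hdac5 (0.17, adjusted p = 0.113) did not pass. Carm1, an arginine methyltransferase and MEF2 coactivator, fell (-0.36), as did the SRF-binding LIM protein gene Fhl2 (-0.25). The calcineurin inhibitor genes Rcan1 (0.49) and Cabin1 (0.24) rose. Without MGT+shScd1 replicate 1 or 2 there were 1 and 1 rises and 2 and 2 falls, and the calls on Hdac9, Cabin1 and Fhl2 were lost (adjusted p from 0.0590 to 0.0853, 0.0593 to 0.186 and 0.0976 to 0.216).

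Genes that the cardiac factors are known to activate went both ways. Of 30 such genes 28 were tested, with 14 rises, 8 falls and 6 under the threshold, against 13.1% higher and 16.3% lower over all genes, and with a median log2 fold change of 0.34, or 0.16 over all 30 with no filter on low counts. The falls include Myl2, with 12 and 1 counts in MGT+shScd1 and 31 and 28 counts in MGT+shNT. It passed the filter on low counts through the MGT+shNT libraries, where it is high, so its fall is no support for that count. On log2(FPKM + 1) and log2(FPKM + 0.1), 14.6% of all genes were higher, and 8.49% and 8.60% were lower. Tnnc1 (2.44) and Tnni3 (1.35), for troponins C and I, Csrp3 (2.55) and Actn2 (1.52) of the Z-disc and the alpha myosin heavy chain gene Myh6 (1.31) rose. Tnnc1 had 102 ± 1.36 CPM in MGT+shScd1 and 19.1 ± 3.04 CPM in MGT+shNT (SD, n = 2 each). Nppa, a target of GATA4, TBX5 and NKX2-5, and its relative Nppb fell, by 1.35 and 1.54 on the log2 scale. Cardiac troponin T (Tnnt2) fell too, to 2464 ± 98.8 CPM in MGT+shScd1, against 3169 ± 245 CPM in MGT+shNT (-0.36, adjusted p = 0.00114), as did the myosin light chain genes Myl4 (-0.27) and Myl7 (-0.31). The last 2 calls were lost without MGT+shScd1 replicate 2 (adjusted p = 0.168 and 0.0721) and on both FPKM scales. Nppa, Nppb, Tnnt2, Myl4 and Myl7 were chosen after their values were seen. Nppa had 20.2 ± 1.90 CPM in MGT+shScd1 and 51.9 ± 5.05 CPM in MGT+shNT, and Nppb had 1.36 ± 0.230 CPM in MGT+shScd1 and 3.98 ± 0.413 CPM in MGT+shNT. Leaving out single libraries gave 14 or 15 rises and 4 to 10 falls, the fewest falls without MGT+shScd1 replicate 2, and both FPKM scales gave 14 rises and 3 falls of 27.

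Target genes of SRF moved both ways in the count-based test, and their balance depended on the scaling. The 24 tested gave 5 rises and 4 falls, against 13.1% higher and 16.3% lower over all genes, and 15 missed the threshold (median -0.03). On log2(FPKM + 1) and log2(FPKM + 0.1) there were 5 rises and 0 falls of 23. There 14.6% of all genes were higher, and 8.49% and 8.60% were lower. Calponin (Cnn1, 0.78), tropomyosin (Tpm1, 0.38), Ccn2 (0.34) and Filip1l (0.25) rose, while vinculin (Vcl, -0.33) and the survival gene Mcl1 (-0.29) fell. The counts moved strongly with single libraries: there were 4 rises and 13 falls without MGT+shNT replicate 1, and 11 rises and 4 falls without MGT+shNT replicate 2. Without MGT+shScd1 replicate 1 there were 2 rises and 0 falls, with the calls on Ccn2, Filip1l, Vcl and Mcl1 lost (adjusted p from 0.0531 to 0.182), and without MGT+shScd1 replicate 2 there were 2 rises and 2 falls, with those on Ccn2 and Filip1l lost (0.0754 and 0.0799).

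**Figure D5:**
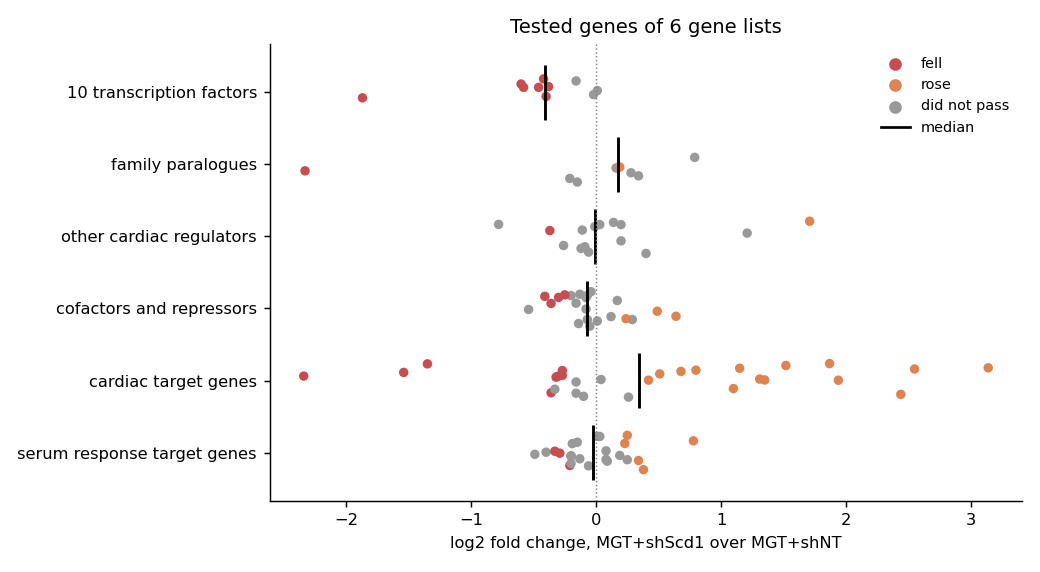
Log2 fold change (MGT+shScd1 over MGT+shNT) of each tested gene in 6 lists, 1 point a gene with random vertical spread, and the list's median as a line. The median lies at -0.41 for the 10 transcription factors and at 0.34 for cardiac target genes, with genes on both sides of 0 among the targets.

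Markers of other cells in the culture also differed between the groups, set against 13.1% higher and 16.3% lower over all genes. On log2(FPKM + 1) there were 3 falls of 10 macrophage, 4 of 11 epicardial and mesothelial, 0 of 3 endothelial and 0 of 10 smooth muscle markers. The shares over all genes on that scale were 14.6% higher and 8.49% lower. Of 14 fibroblast markers 10 fell and 1 rose (median -0.47), Pdgfrb and Fbln1 first among the falls (-1.46 and -1.34). The rise was Postn, at 2260 CPM in MGT+shScd1 and 1103 CPM in MGT+shNT (means, log2 fold change 1.03, adjusted p = 2.48e-06). Of 12 macrophage markers 8 fell and 1 rose (median -1.24), led by Lyz2 and Cd68 (-2.20 and -2.47), and their summed level was 220 and 216 CPM in MGT+shScd1, against 844 and 757 CPM in MGT+shNT. Lyz2 alone made up most of that sum, with 126 and 118 CPM in MGT+shScd1 and 568 and 552 CPM in MGT+shNT. C1qb was the rise (0.65), and C1qa, Aif1 and Csf1r did not pass. Falls numbered 5 without MGT+shNT replicate 1 or MGT+shScd1 replicate 1, and the single rise was lost without MGT+shNT replicate 2 or either MGT+shScd1 library. Of 12 epicardial and mesothelial markers, cells that also express GATA4, GATA6 and TBX18, 7 fell and 2 rose (median -0.45), Msln and Tcf21 among the falls (-0.73 and -0.61), and the sum was 806 and 804 CPM in MGT+shScd1, against 976 and 969 CPM in MGT+shNT. Falls numbered 4 there without MGT+shScd1 replicate 1, and 1 rise was left without MGT+shNT replicate 1 or either MGT+shScd1 library. Of 9 endothelial markers tested 3 fell, 0 rose and 6 did not pass (445 and 429 CPM in MGT+shScd1, 539 and 515 CPM in MGT+shNT), with Vwf (-2.40) and Eng (-0.26) among the falls. Eng alone made up most of those sums, with 419 and 402 CPM in MGT+shScd1 and 501 and 484 CPM in MGT+shNT. Vwf, with 11 and 8 counts in MGT+shScd1 and 69 and 25 counts in MGT+shNT, passed the filter on low counts through the MGT+shNT libraries, where it is high. Without MGT+shScd1 replicate 2 there was 1 endothelial fall and the Eng call was lost (adjusted p = 0.0964), and without MGT+shNT replicate 1 there was 1 rise. Of 10 smooth muscle markers 3 rose and 2 fell (4548 and 4337 CPM in MGT+shScd1, 3536 and 4126 CPM in MGT+shNT), Des (0.68) and Cnn1 among the rises, with 6 rises without MGT+shNT replicate 2 and 0 falls without MGT+shScd1 replicate 1. No marker in these lists was at 0 in all libraries. The lists share genes, so some calls are counted more than once. Des (1406 and 1391 CPM in MGT+shScd1, 921 and 822 CPM in MGT+shNT) is also a cardiac target gene above, and Cnn1 an SRF target. Tcf21 is both a fibroblast and an epicardial marker here, and Tbx18 both an epicardial marker and a family relative. The part of these cells in the levels of the transcription factors was not tested, and in such bulk samples fewer cells of a type and less RNA per cell cannot be told apart.

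Some other genes had a profile over the 4 libraries close to that of the 3 introduced factors. Among 4418 tested genes with a mean of at least 50 CPM, the closest included Rps6ka3, Scarb2, Dnm3os and Heg1, with a root mean square difference in centred log2(CPM + 1) from 0.0131 to 0.0174 and log2 fold changes from -0.41 to -0.38. Each of these 4 was closer to the mean profile than Gata4 (0.0216), Tbx5 (0.0308) and Mef2c (0.0472) themselves. They were picked as the closest of 4418 genes, so this closeness follows from the choice. Mef2a ranked 121st by the same measure, Mef2d 566th and Tbx20 1205th.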

How the data were processed

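RNA of 4 libraries was sequenced, 2 MGT+shScd1 and 2 MGT+shNT. The authors deposited 1 table with raw counts and FPKM per gene and library, per the file headers. The FPKM deposited by the authors equalled those computed from the counts, the exonic gene length and the total count for 100.0% of values (within 0.005). Tools named in the submitters' processing notes are featureCounts, Subread 1.5.1, SAMtools and Trimmomatic 0.36, with the build mm10. No source used here gives the aligner, the strand setting or the treatment of multi-mapping reads. PolyA RNA is on the labels, but their protocol removes ribosomal RNA instead. Columns named shSCD1-2 were read as the MGT+shScd1 libraries by name, which assumes that the 2 names a hairpin. Deposited coordinates differed from mm10, so positions come from GENCODE M21 (GRCm38).

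Genes kept by filterByExpr (minimum count 10, minimum total 15) were tested with edgeR 4.0.16 in R 4.3.3 (quasi-likelihood, TMM factors, group as the single term, two-sided, Benjamini-Hochberg over 16234 genes, called below 0.05). SE and 95% intervals come from that fit, and levels are CPM on TMM-adjusted totals. DESeq2 1.42.0 and limma 3.58.1 served as alternatives. The test was tried on simulated counts, drawn with the same spread in both groups. The real groups did not share their spread, so that trial is no check on this difference. Replicates differed by more than sampling noise (chi-square of 2.82 per degree of freedom in MGT+shScd1 and 43.6 in MGT+shNT). With 1 library left out, only the other group's pair gives the replicate spread. Fits without a MGT+shNT library thus rest on the closer MGT+shScd1 pair, and a call that holds there is a weak check. No label says that replicates were separate cultures, so p-values may cover technical spread alone.

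The members and lists were chosen with earlier results of these data known. Named genes are the 10 genes, up to 6 tested genes per list with the smallest adjusted p, family relatives with a mean of at least 1 FPKM in either group, and the 5 genes of at least 50 CPM closest to the 3 factors' profile. Some genes that this rule names are not reported here.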

Additional observations from a re-analysis of the deposited data

How the results depend on the processing

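Every one of the 10 genes was refitted with DESeq2 size factors, no filter on low counts, the DESeq2 Wald test, limma-voom, log2(FPKM + 1), log2(FPKM + 0.1), the replicate block, no Rn18s-rs5 and Lars2, and each library left out. Mef2a, Mef2d, Tbx5 and Tbx20 passed as falls in each fit with all 4 libraries. Their log2 fold changes stayed negative with each library left out. Gata4 did not pass on log2(FPKM + 1) (adjusted p = 0.0510), nor Mef2c there (0.123), on log2(FPKM + 0.1) (0.120) or with DESeq2 (0.0600), nor Nkx2-5 with DESeq2 (0.0920). Nkx2-5 was under the FPKM filter. Thus 4 of 9 fell on log2(FPKM + 1). On these FPKM scales, which carry no TMM factors, 3097 and 3111 genes were called over the whole table (pseudocounts 1 and 0.1), 1137 and 1151 of them lower, against 4763 with 2641 lower and 2122 higher in the main test, and DESeq2 called 1365 higher. With 1 library left out the calls ranged from 2217 to 5331, the higher ones from 860 to 2386 and the lower ones from 1357 to 2945, the fewest without MGT+shScd1 replicate 1 (2217) or 2 (2649). The Mef2c to Gata4 difference reversed without MGT+shNT replicate 1 (0.02) or MGT+shScd1 replicate 1 (0.06), and the Mef2c to Tbx5 difference without MGT+shNT replicate 2 (-0.02) or MGT+shScd1 replicate 2 (-0.09). Over single libraries left out these differences ranged from -0.11 to 0.06 and from -0.09 to 0.11. The causes were not tested.

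With the replicate number as a block 4990 genes were called and the same 7 genes fell. Same-numbered libraries did not deviate together (correlation -0.02), so the numbers were not taken as pairs. Counts of 4 to 24 per library limit Nkx2-5.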
